A study of Homo sapiens with 30 samples.

Results

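Vehicle-treated COLO205 and HCT116 cells were compared, gene by gene, to describe how the messenger RNA of these colorectal cancer lines differed at baseline in a study of an inhibitor of SUMO-activating enzyme. The comparison used 6 of the study's 30 RNA sequencing libraries: 3 of COLO205 cells and 3 of HCT116 cells, all exposed to 0.01% DMSO for 16 h and to no other agent. Genes entered when at least 3 of the 6 libraries held 1 FPKM or more, which 13201 of the table's 30373 genes did. Gene levels are taken as FPKM, which divides a gene's fragments by its length and by the library's total. The labels call the libraries biological triplicates, and each line is a single established line. The p-values below therefore measure the spread between cultures of a line and not the spread between colorectal cancers. Each line also had 3 libraries of cells given 500 nM ML-792, the inhibitor, for 16 h, which share no sample with the vehicle libraries. Further vehicle libraries, all with 0.01% DMSO, are used in places for comparison. They include 3 of HCT116 cells taken at 3.5 h without heat shock, called the HCT116 libraries of 3.5 h below. The others are 3 of the breast line MDAMB231 at 16 h.

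The lining of the intestine renews itself from stem cells in the crypts, where WNT signals hold cells in division. Their progeny become absorptive cells with a brush border, mucus-secreting goblet cells or hormone-secreting enteroendocrine cells, under transcription factors such as CDX2 and HNF4A. Colorectal cancer lines keep these programmes to different degrees. HCT116 is widely used as a line with mismatch repair deficiency, and COLO205 as a line with mutant BRAF.

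The 6 libraries were alike in the number of genes detected, with 11880 to 12297 genes at 1 FPKM or more. Mitochondrially encoded transcripts held 16.3% to 18.1% of the summed FPKM. The total number of fragments is not in the table. The most frequent ratio of low values, gene by gene, put the other 5 libraries at 0.829 to 0.953 times the first HCT116 library's depth. Of the genes used, 9.29% to 14.4% lay at that ratio, so the depths are rough estimates. Across genes, libraries of the same line had a Pearson correlation of 0.9958 or more, and libraries of different lines of 0.740 to 0.747, as a description of these libraries. The median SE of a difference was 0.056 on the log2(FPKM + 1) scale. Differences below are COLO205 minus HCT116 on that scale, from limma, with their SE. The scale understates the fold change of genes at low levels.

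Most of the transcriptome differed beyond the spread between replicates. An adjusted p under 0.05 was reached by 11548 of the 13201 genes (87.5%), and the 3 COLO205 values lay wholly above or below the 3 HCT116 values in 88.0%. A gene was called when the difference was also at least 2-fold: 1994 genes (15.1%) were called higher and 2188 genes (16.6%) lower in COLO205. Among the 10557 genes at 1 FPKM or more in all 6 libraries, 1157 (11%) were called higher and 1033 (9.78%) lower, with a median difference of -0.04. These shares are the background against which every gene list below is to be read. In all, 958 genes passed through the COLO205 libraries alone and 1280 through the HCT116 libraries alone, and the filter fixes the sign of the difference in such genes. A difference of 5 or more on the log2 scale was reached by 61 genes in the direction of COLO205 and by 38 in the direction of HCT116.

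**Figure D1:**
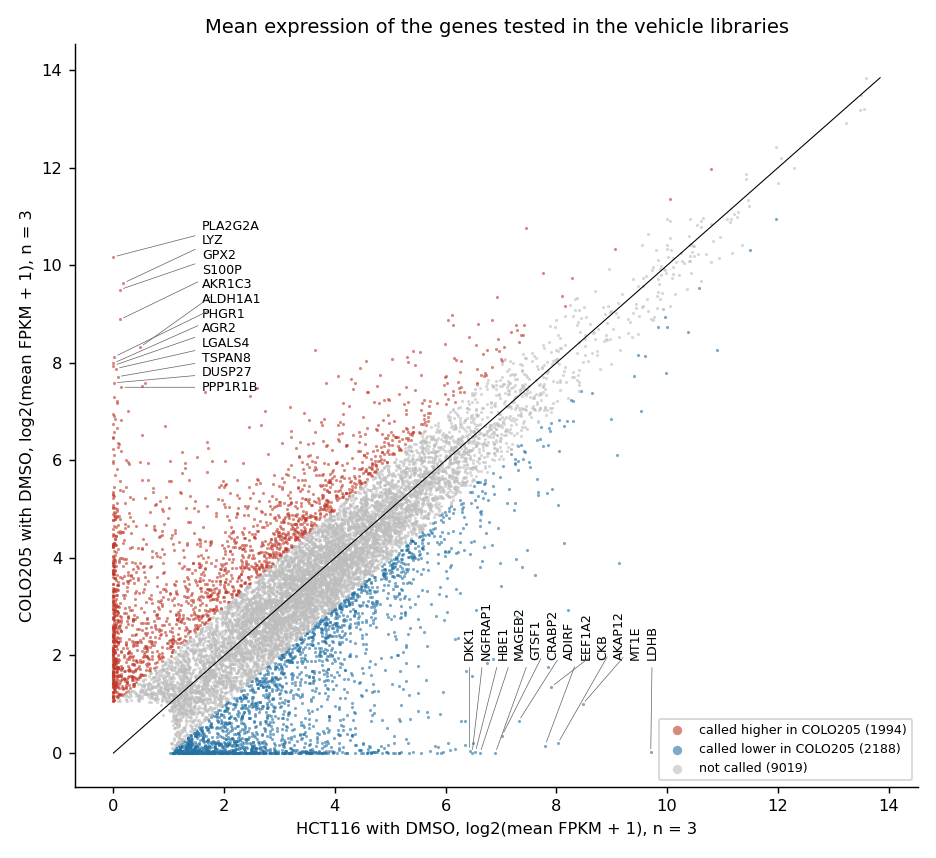
Mean expression of the 13201 genes in COLO205 (vertical axis) and HCT116 (horizontal axis) vehicle libraries, as log2(mean FPKM + 1), n = 3 each, with red points for the 1994 genes called higher in COLO205 and blue points for the 2188 called lower. Named are the 12 largest differences in each direction among called genes that met the conditions for naming. They lie along the axes, near 0 in one of the lines.

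The genes furthest above HCT116 included secreted proteins, such as a phospholipase and lysozyme, and enzymes of peroxide and aldehyde metabolism. PLA2G2A, a secreted phospholipase, had 1143, 1120.4 and 1197 FPKM in the COLO205 libraries and was listed at 0 in each HCT116 library. LYZ, which encodes lysozyme, had 807, 759 and 819 FPKM in COLO205 and 0.155, 0.245 and 0 FPKM in HCT116. Lysozyme was thus abundant in every COLO205 library and below 1 FPKM in every HCT116 library, a difference of 9.46 ± 0.074 (adjusted p = 9.25e-14). GPX2, the gastrointestinal glutathione peroxidase, had 667, 727 and 778 FPKM in COLO205 and 0.162, 0.0621 and 0.0325 FPKM in HCT116. S100P, a calcium-binding protein, had 422, 479 and 521 FPKM in COLO205 and 0, 0.0662 and 0.208 FPKM in HCT116. ALDH1A1, an aldehyde dehydrogenase that makes retinoic acid, differed by 8.11 ± 0.04. AKR1C3, an aldo-keto reductase, differed by 7.84 ± 0.055, and reads of the near-identical AKR1C genes may be shared between them. AGR2, an endoplasmic reticulum protein of mucus-producing cells, averaged 245 ± 8.86 FPKM in COLO205 (SD, n = 3, as throughout) and was listed at 0 in HCT116. DUSP27 averaged 192 ± 3.27 FPKM in COLO205 and 0.00556 ± 0.00963 FPKM in HCT116, and PPP1R1B, the phosphatase inhibitor DARPP-32, averaged 180.0 ± 7.77 FPKM in COLO205 and 0.103 ± 0.0623 FPKM in HCT116. These genes were taken only from those whose groups do not overlap, a condition that 88.0% of all genes tested met.

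In the other direction the largest difference was in LDHB, the B subunit of lactate dehydrogenase. LDHB had 0, 0.0234 and 0 FPKM in the COLO205 libraries and 822, 862 and 816 FPKM in the HCT116 libraries, a difference of -9.69 ± 0.04 (adjusted p = 4.09e-15). The A subunit, LDHA, averaged 293 ± 11.8 FPKM in COLO205 and 330.2 ± 4.31 FPKM in HCT116 and was not called. AKAP12, a scaffold for protein kinase A, averaged 0.151 ± 0.0983 FPKM in COLO205 and 260.2 ± 22.8 FPKM in HCT116. EEF1A2, a tissue-restricted form of the translation elongation factor eEF1A, averaged 0.112 ± 0.0275 FPKM in COLO205 and 221 ± 17.2 FPKM in HCT116. MT1E, a metallothionein, had 1.51, 0.748 and 0.758 FPKM in COLO205 and 312, 365 and 388 FPKM in HCT116, and the metallothionein genes are near-identical. CKB, the brain-type creatine kinase, differed by -6.54 ± 0.11, CRABP2, a carrier of retinoic acid, by -6.66 ± 0.085, and ADIRF, an adipogenesis regulator, by -6.66 ± 0.097. GTSF1, a germ cell protein of the piRNA pathway, and NGFRAP1 were listed at 0 in every COLO205 library, against 118 ± 4.51 FPKM for GTSF1 and 88.2 ± 2.75 FPKM for NGFRAP1 in HCT116. Apart from LDHA, these genes too were named only if the groups did not overlap, which held in 88.0% of all genes tested.

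Nearly all markers of the differentiated intestine that passed the filter were called higher in COLO205. Of 40 such markers, 22 passed the filter, and of those 20 were called higher in COLO205 and 1 lower. The sign of the difference was fixed by the filter for 17 of the 22, which reached 1 FPKM in COLO205 alone, so the summed level is the plainer description: 1289 to 1337 FPKM over the list in COLO205 libraries, against 43.6 to 44.5 FPKM in HCT116 libraries. The 4 markers at 1 FPKM or more in all 6 libraries had a median difference of 1.71, with 3 called higher and 0 lower. PHGR1, a small protein abundant in gut epithelium, had 278, 246 and 238 FPKM in COLO205 and was listed at 0 in each HCT116 library. LGALS4, galectin-4, had 233, 235 and 238 FPKM in COLO205 and 0.046, 0 and 0.0553 FPKM in HCT116. TSPAN8, a tetraspanin, had 213, 199.6 and 216 FPKM in COLO205 and 0.132, 0 and 0.0317 FPKM in HCT116, a difference of 7.64 ± 0.057. All 3 genes were abundant in each COLO205 library and near 0 in each HCT116 library. VIL1, the brush border protein villin, averaged 114 ± 3.15 FPKM in COLO205 and 0.0188 ± 0.00496 FPKM in HCT116, and MUC13, a transmembrane mucin, averaged 129 ± 2.34 FPKM in COLO205 and 0.193 ± 0.0157 FPKM in HCT116. GPA33, the colon antigen A33, averaged 81.3 ± 0.868 FPKM in COLO205 and 0.0619 ± 0.0234 FPKM in HCT116. USH1C, harmonin of the brush border, was on in both lines and differed by 3.03 ± 0.047. CA2, carbonic anhydrase 2, ran the other way, at 0.36, 0.278 and 0.23 FPKM in COLO205 and 18.7, 18.9 and 18.6 FPKM in HCT116 (difference -3.94 ± 0.055, adjusted p = 2.6e-12). COLO205 also lacked part of the programme: the absorptive enzyme genes SI, ALPI and CA1 were listed at 0 in COLO205, and KRT20 averaged 0.209 ± 0.0496 FPKM in COLO205 and 0.587 ± 0.205 FPKM in HCT116, under the filter.

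Transcription factors of the intestine showed the same mixture. Of 30 listed, 23 passed, with 14 called higher in COLO205 and 2 lower, while among the 17 at 1 FPKM or more in all 6 libraries 10 were called higher and 1 lower, with a median of 1.1. MYB, needed by crypt progenitors, had 64.7, 65.6 and 67.2 FPKM in COLO205 and 1.63, 1.97 and 1.97 FPKM in HCT116 (difference 4.55 ± 0.056). FOXA2, a factor of gut and liver endoderm, averaged 18.3 ± 0.293 FPKM in COLO205 and was near 0 in HCT116, at 0.0175 ± 0.0152 FPKM. HNF4A, a nuclear receptor of the same tissues, had 30.3, 30.4 and 30.2 FPKM in COLO205 and 1.89, 1.9 and 1.88 FPKM in HCT116, 16-fold higher in COLO205 on the FPKM scale. KLF5 and ELF3, epithelial factors, were higher by 3.12 ± 0.054 and 2.81 ± 0.074. Yet CDX2, the homeobox factor that specifies intestine, had 0.268, 0.288 and 0.267 FPKM in COLO205 and 5.53, 5.44 and 6.63 FPKM in HCT116, a difference of -2.43 ± 0.072 (adjusted p = 4.07e-10). TCF7L2, the WNT effector TCF4, averaged 13.1 ± 0.775 FPKM in COLO205 and 66.5 ± 2.93 FPKM in HCT116. The line with the higher level of most intestinal markers that passed was therefore the one with the lower level of CDX2.

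Upstream sequence is shown for the intestinal markers with the largest differences that had an entry in the promoter table, and for a pair of mesenchymal genes that lay on the other side, so that base composition can be compared. Each line gives the 250 bases before the annotated start, 5′ to 3′, from RefSeq on GRCh38.p14, with CG dinucleotides in capitals. The positions are chr19:38812946-38813195 (minus strand) for LGALS4, chr12:71158000-71158249 (minus) for TSPAN8, chr3:124934752-124935001 (minus) for MUC13 and chr1:167090378-167090627 (minus) for GPA33. Those of the mesenchymal genes are chr21:46097862-46098111 (plus) for COL6A2 and chr7:116524759-116525008 (plus) for CAV1.
LGALS4: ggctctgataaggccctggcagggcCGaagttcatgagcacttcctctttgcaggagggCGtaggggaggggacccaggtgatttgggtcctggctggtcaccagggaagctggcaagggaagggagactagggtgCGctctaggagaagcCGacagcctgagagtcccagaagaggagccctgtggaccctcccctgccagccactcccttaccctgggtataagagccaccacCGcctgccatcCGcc
TSPAN8: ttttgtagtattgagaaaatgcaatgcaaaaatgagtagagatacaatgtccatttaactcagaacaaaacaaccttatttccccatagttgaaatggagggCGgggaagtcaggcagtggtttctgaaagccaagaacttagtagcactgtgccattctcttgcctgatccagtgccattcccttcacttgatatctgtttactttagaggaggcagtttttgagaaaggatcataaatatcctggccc
MUC13: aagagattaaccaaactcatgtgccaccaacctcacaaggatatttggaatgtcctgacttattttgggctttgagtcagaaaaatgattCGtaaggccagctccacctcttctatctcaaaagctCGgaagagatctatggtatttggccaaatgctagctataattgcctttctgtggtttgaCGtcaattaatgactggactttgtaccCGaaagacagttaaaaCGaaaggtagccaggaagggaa
GPA33: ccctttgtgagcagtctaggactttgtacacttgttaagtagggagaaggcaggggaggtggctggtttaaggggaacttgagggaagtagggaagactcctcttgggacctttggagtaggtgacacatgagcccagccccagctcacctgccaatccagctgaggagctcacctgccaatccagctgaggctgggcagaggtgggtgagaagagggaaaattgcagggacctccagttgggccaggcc
COL6A2: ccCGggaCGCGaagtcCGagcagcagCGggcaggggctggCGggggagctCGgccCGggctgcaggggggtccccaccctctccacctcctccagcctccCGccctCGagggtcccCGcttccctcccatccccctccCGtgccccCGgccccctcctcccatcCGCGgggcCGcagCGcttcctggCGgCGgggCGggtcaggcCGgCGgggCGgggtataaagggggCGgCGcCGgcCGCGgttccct
CAV1: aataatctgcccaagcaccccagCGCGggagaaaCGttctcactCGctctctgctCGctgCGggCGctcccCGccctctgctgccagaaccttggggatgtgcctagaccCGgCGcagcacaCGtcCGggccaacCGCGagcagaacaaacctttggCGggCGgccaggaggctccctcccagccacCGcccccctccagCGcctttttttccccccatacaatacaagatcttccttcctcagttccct
The windows of LGALS4, TSPAN8, MUC13 and GPA33, higher in COLO205, held 6, 1, 5 and 0 CG dinucleotides. Those of COL6A2 and CAV1, low in COLO205, held 28 and 18.

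The contrast held over the on and off sets below, as a description, and was smaller over all called genes. Genes were set apart as on in one line and off in the other when they averaged 5 FPKM or more in that line and stayed under 0.1 FPKM in each library of the other, which 194 genes (1.47% of those tested) did in the sense of COLO205 on and 177 (1.34%) in the sense of HCT116 on. A promoter entry was found for 132 genes of the COLO205-on set, with a median of 4 CG dinucleotides in 250 bases, and for 131 genes of the HCT116-on set, with a median of 20. The median was 22 over 8349 genes at 1 FPKM or more in all 6 libraries. Windows with 10 or fewer made up 70.5% of the COLO205-on set, 26% of the HCT116-on set and 12.3% of the genes expressed throughout. Such windows made up 16.1% of all genes tested that had an entry (median 21). Among all genes of the table with an entry they made up 33.6% (median 17). Over all called genes with an entry, the median was 18 for 1456 genes higher in COLO205 and 22 for 1587 lower. Windows with 10 or fewer made up 31.1% and 17.6% of them, the second share being close to the 16.1% of genes tested. The mesenchymal list had a median of 16 over 28 genes, below the 21 of all genes tested and unlike COL6A2 at 28. The intestinal marker list had a median of 4 over 31 genes.

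Goblet and other secretory markers followed the absorptive ones. Of 30, 13 passed and 12 were called higher in COLO205 and 0 lower, with 9 passing through COLO205 alone and a median of 2.28 over the 4 in all 6 libraries. TFF3, the goblet cell trefoil peptide, had 98.1, 105 and 116 FPKM in COLO205 and was listed at 0 in each HCT116 library. LCN2, the iron-trapping protein lipocalin 2, averaged 56.4 ± 5.31 FPKM in COLO205 and 1.46 ± 0.276 FPKM in HCT116, and MUC1, a transmembrane mucin, averaged 42.8 ± 1.12 FPKM in COLO205 and 3.0 ± 0.426 FPKM in HCT116. The gel-forming goblet mucin MUC2 was near 0 in both lines, at 0.00135 ± 0.00234 FPKM in COLO205 and 0.0475 ± 0.0268 FPKM in HCT116, as was ATOH1, the factor that commits cells to the secretory fate, listed at 0 in COLO205 and at 0.0709 ± 0.0105 FPKM in HCT116. Enteroendocrine and neural markers were mostly silent: 4 of 24 passed, all 4 called lower in COLO205. Of the 4, 2 passed through HCT116 alone, which fixes their sign, and the 2 in all 6 libraries had a median of -2.34. SCG2, a secretogranin, averaged 0.186 ± 0.019 FPKM in COLO205 and 13.5 ± 1.04 FPKM in HCT116. TUBB3, the neuronal beta-tubulin, averaged 6.67 ± 0.0614 FPKM in COLO205 and 92.4 ± 9.0 FPKM in HCT116, and L1CAM, a neural adhesion molecule, 0.0126 ± 0.0104 FPKM in COLO205 and 4.96 ± 0.255 FPKM in HCT116. CHGA, the defining enteroendocrine granin, averaged 0.0173 ± 0.00238 FPKM in COLO205 and 0.0122 ± 0.0113 FPKM in HCT116.

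Genes of intestinal stem cells and of the WNT response split in both directions. Of 36 listed, 30 passed, 18 were called higher in COLO205 and 6 lower, and among the 19 at 1 FPKM or more in all 6 libraries 10 were higher and 3 lower, with a median of 1.29. TCF7, a WNT effector and itself a WNT target, had 297, 307 and 314 FPKM in COLO205 and 10.5, 11.7 and 12 FPKM in HCT116. TCF7 was 26.8-fold higher in COLO205 (difference 4.63 ± 0.052, adjusted p = 7.43e-13), while its relative TCF7L2 was 5.06-fold lower. EPHB2, a receptor that places cells along the crypt, had 98.9, 105 and 110.0 FPKM in COLO205 and 5.03, 5.17 and 5.85 FPKM in HCT116. LGR5, the stem cell receptor for R-spondins, averaged 5.88 ± 0.169 FPKM in COLO205 and 0.0115 ± 0.0138 FPKM in HCT116. SMOC2 and ASCL2, further stem cell genes, were listed at 0 in HCT116 and averaged 17.6 ± 1.36 FPKM and 12.5 ± 0.175 FPKM in COLO205. AXIN2, a negative feedback target of WNT, differed by 1.96 ± 0.041. On the other side stood DKK1, a secreted WNT antagonist, with 0.0175, 0.0512 and 0.0193 FPKM in COLO205 and 90.2, 82.7 and 83.3 FPKM in HCT116. MSX1, a homeobox factor, differed by -3.16 ± 0.086, and CD44, a hyaluronan receptor, by -2.35 ± 0.044. CCND1, cyclin D1, had 14.5, 13.4 and 13.9 FPKM in COLO205 and 125, 122 and 128 FPKM in HCT116, 8.98-fold lower in COLO205. APC and CTNNB1, the core of WNT control, were not called, with differences of -0.31 ± 0.056 for APC and -0.25 ± 0.044 for CTNNB1, the gene of beta-catenin.

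**Figure D2:**
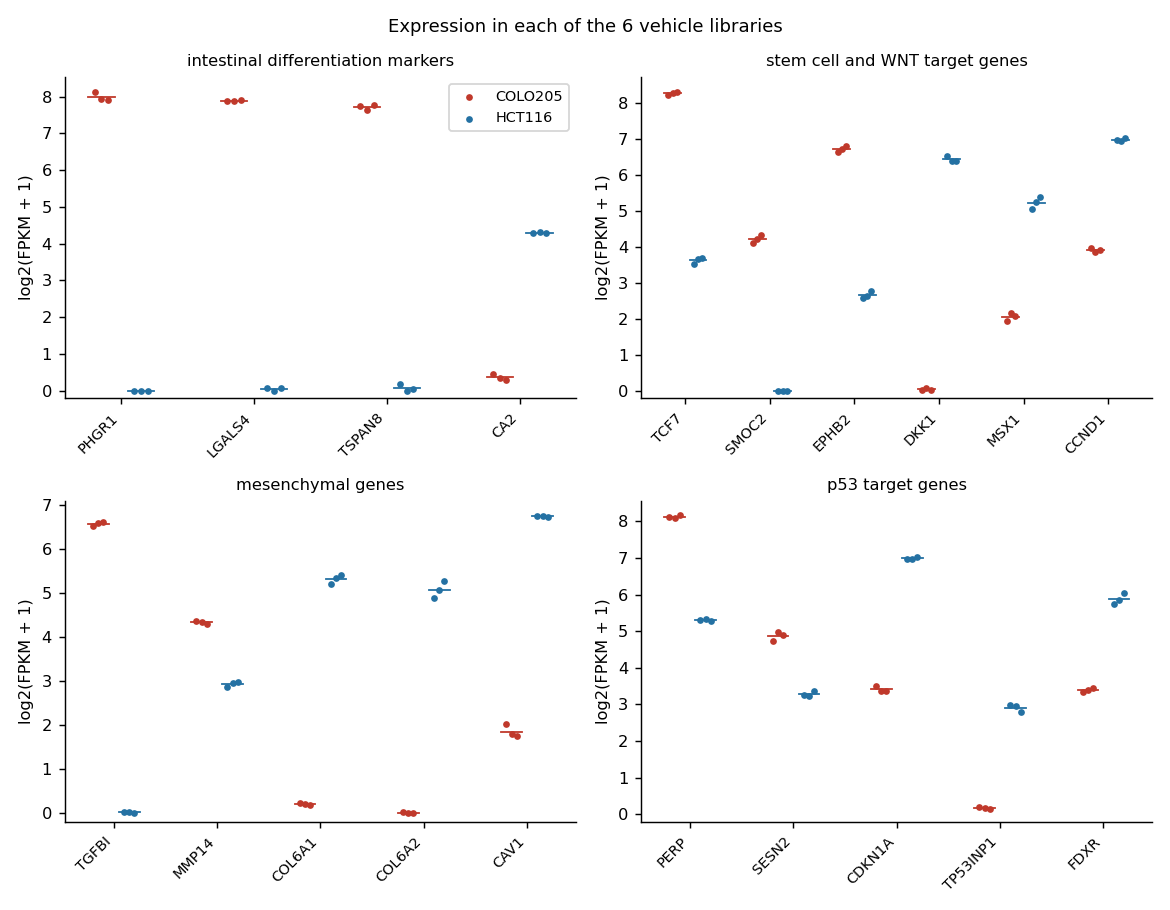
Expression of selected members of 4 gene lists in each of the 6 vehicle libraries, as log2(FPKM + 1), with COLO205 in red to the left of HCT116 in blue and a bar at the mean of 3 libraries. The replicates of a line lie close together. No gene shown has overlapping groups, which also holds for 88.0% of all genes tested. Each list holds genes on both sides, such as CA2 opposite PHGR1, DKK1 opposite TCF7, TGFBI opposite CAV1 and PERP opposite CDKN1A.

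Both lines were epithelial, COLO205 more strongly so for some junction genes. Of 43 epithelial genes 42 passed, 39 of them in all 6 libraries, with 15 called higher in COLO205 and 0 lower and a median of 0.81 over those 39. CDH1, E-cadherin, had 99, 97 and 94.4 FPKM in COLO205 and 7.73, 8.39 and 8.69 FPKM in HCT116, 11.7-fold higher in COLO205 (difference 3.4 ± 0.048, adjusted p = 2.88e-12). EPCAM, an epithelial adhesion molecule, had 475, 448 and 478 FPKM in COLO205 and 105, 119 and 116 FPKM in HCT116. TJP1, the tight junction protein ZO-1, averaged 17.6 ± 1.08 FPKM in COLO205 and 17.8 ± 0.682 FPKM in HCT116 and was not called. Keratins gave 4 called higher and 0 lower among 9 of 20 that passed, 2 of them through COLO205 alone. Over the 7 in all 6 libraries 2 were higher and 0 lower, with a median of 0.40. KRT80 averaged 24.4 ± 0.956 FPKM in COLO205 and 0.497 ± 0.0434 FPKM in HCT116, and KRT6B, a keratin of stratified epithelium that shares sequence with its near copies, 27.9 ± 1.78 FPKM in COLO205 and 0.0117 ± 0.0104 FPKM in HCT116.

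By count of calls, mesenchymal genes lay mostly on the HCT116 side. Of 39 listed, 24 passed, 2 were called higher in COLO205 and 17 lower, 13 of the 24 passing through HCT116 alone. Over the 10 in all 6 libraries 1 was higher and 6 lower, with a median of -1.5. The list summed to 708 to 784 FPKM in COLO205 libraries and 762 to 784 FPKM in HCT116 libraries. The lean was therefore one of counts and not of summed level. COL6A1 and COL6A2, chains of collagen VI, averaged 0.146 ± 0.0138 FPKM and 0.00333 ± 0.00577 FPKM in COLO205, against 39.1 ± 2.85 FPKM and 33 ± 4.39 FPKM in HCT116. CAV1, the coat protein of caveolae, had 3.04, 2.46 and 2.34 FPKM in COLO205 and 107, 107 and 104 FPKM in HCT116 (difference -4.9 ± 0.067). PTRF, a second caveolar coat protein, and AXL, a receptor tyrosine kinase, differed by -4.65 ± 0.057 and -3.34 ± 0.08. VIM, vimentin, had 0.0148, 0 and 0 FPKM in COLO205 and 4.23, 3.6 and 4.27 FPKM in HCT116, so the level in HCT116 was low too, against 885 ± 40.6 FPKM in the breast line MDAMB231 under the same vehicle. The transcription factor ZEB1 was not called, at 0.591 ± 0.132 FPKM in COLO205 and 1.48 ± 0.0316 FPKM in HCT116, and CDH2, N-cadherin, was listed at 0 in COLO205 and at 0.00613 ± 0.0106 FPKM in HCT116. TGFBI, a matrix protein induced by TGF-beta, broke the pattern, with 91, 95.5 and 96.7 FPKM in COLO205 and 0.0109, 0.0125 and 0 FPKM in HCT116. MMP14, a membrane-bound metalloprotease, was also higher, by 1.41 ± 0.048.

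Matrix and receptor genes separated by subunit. Among 35 laminin and collagen genes 21 passed, with 5 called higher in COLO205 and 14 lower, but 12 passed through HCT116 alone and 3 through COLO205 alone. Over the 6 in all 6 libraries 3 were higher and 3 lower, with a median of -0.51. LAMA3 and LAMB3, chains of laminin-332, the anchor of epithelial cells, averaged 15.3 ± 2.21 FPKM and 36.3 ± 4.55 FPKM in COLO205, against 0.625 ± 0.0443 FPKM and 8.12 ± 0.259 FPKM in HCT116. LAMA5, LAMB2 and LAMC1, chains of laminin-521, were all lower, with differences of -4.82 ± 0.067 for LAMA5, -2.07 ± 0.052 for LAMB2 and -2.97 ± 0.052 for LAMC1. Integrins gave 4 called higher and 5 lower among 14 of 25 that passed, and 1 and 3 over the 9 in all 6 libraries, with a median of 0.0041. ITGA6, the alpha chain of the hemidesmosome receptor for laminin-332, had 191, 183 and 179 FPKM in COLO205 and 28.7, 25.7 and 24.1 FPKM in HCT116. Its partner ITGB4 averaged 185 ± 0.999 FPKM in COLO205 and 93.6 ± 3.66 FPKM in HCT116, a difference of 0.98 ± 0.042 just short of 2-fold. ITGA5, the alpha chain of the fibronectin receptor, averaged 3.72 ± 0.146 FPKM in COLO205 and 16 ± 0.365 FPKM in HCT116.

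p53 target genes were lower in COLO205 for a large part of the list. Of 32 listed, 30 passed, 2 were called higher and 13 lower, and over the 28 in all 6 libraries 2 were higher and 11 lower with a median of -0.76. Against the HCT116 libraries of 3.5 h, 4 of the list were higher. CDKN1A, the cell cycle inhibitor p21, had 10.4, 9.31 and 9.37 FPKM in COLO205 and 124, 126 and 129 FPKM in HCT116, 13-fold lower in COLO205 (difference -3.57 ± 0.048, adjusted p = 2.16e-12). FDXR, a mitochondrial reductase, had 9.21, 9.55 and 9.94 FPKM in COLO205 and 52.8, 56.9 and 65.4 FPKM in HCT116. MDM2, a ubiquitin ligase, differed by -1.61 ± 0.059, and TP53INP1, a stress protein, by -2.74 ± 0.064. PERP, a desmosome-associated target, ran the other way with 278, 270.0 and 285 FPKM in COLO205 and 38.3, 38.9 and 38 FPKM in HCT116, and SESN2, which also responds to amino acid stress, was higher by 1.59 ± 0.067.

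Genes of G2 and mitosis were all expressed in both lines, 34 of 34 in all 6 libraries, with 0 called higher in COLO205 and 6 lower and a median of -0.61. TTK, a spindle checkpoint kinase, differed by -1.59 ± 0.041, KIF20A, a mitotic kinesin, by -1.45 ± 0.057, and CDC20, the activator of the anaphase complex, by -1.36 ± 0.052. MKI67, the proliferation antigen Ki-67, averaged 28.9 ± 1.19 FPKM in COLO205 and 59.8 ± 4.13 FPKM in HCT116, a difference of -1.02 ± 0.056 that lies at the 2-fold limit. The MKI67 log2 difference was short of 2-fold without COLO205 replicate 3, at -0.99, or without HCT116 replicate 1, at -0.97. DNA replication genes gave 3 called higher and 3 lower among 34, with a median of -0.17: RFC3, a clamp loader subunit, was higher by 1.5 ± 0.041, while TYMS, thymidylate synthase, had 32.1, 34.5 and 35.2 FPKM in COLO205 and 153, 153 and 151 FPKM in HCT116. Against the HCT116 vehicle libraries of 3.5 h the G2 list gave 15 members lower and the replication list 0 higher and 11 lower, so these counts depend on which HCT116 cultures are used. In the G1 list, 3 of 21 that passed were higher and 3 lower, and 5 and 6 against the 3.5 h libraries. CCND3, cyclin D3, had 132, 132 and 147 FPKM in COLO205 and 17.8, 17.7 and 19 FPKM in HCT116, the reverse of cyclin D1. RB1, their substrate, averaged 46.2 ± 1.19 FPKM in COLO205 and 14.1 ± 0.667 FPKM in HCT116, and CCNE1, cyclin E1, 2.98 ± 0.203 FPKM in COLO205 and 18.2 ± 0.842 FPKM in HCT116. CDKN2A, the locus of p16, averaged 25.4 ± 2.2 FPKM in COLO205 and 21.9 ± 6.25 FPKM in HCT116 with overlapping groups (adjusted p = 0.232).

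Of 24 mismatch repair genes and partners found in the table, 23 passed, 4 were called higher in COLO205 and 1 lower, with a median of -0.14 over 22 in all 6 libraries. Against the HCT116 libraries of 3.5 h the counts were 3 and 5. MSH3, which recognises larger mispaired loops, had 7.05, 7.21 and 7.54 FPKM in COLO205 and 0.895, 0.739 and 0.901 FPKM in HCT116. MSH6, part of the complex that recognises single mispairs, was not called, with a difference of -0.38 ± 0.049.

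Outputs of the MAP kinase pathway did not lean one way. Of 28 that passed out of 30, 6 were called higher in COLO205 and 8 lower, with a median of -0.063 over 25 in all 6 libraries. SPRY2 and SPRY1, feedback inhibitors of receptor signalling, were higher by 2.78 ± 0.05 and 2.09 ± 0.066. FOS, an immediate early transcription factor, had 35.7, 37.6 and 36.4 FPKM in COLO205 and 4.62, 4.35 and 4.68 FPKM in HCT116. DUSP5, a nuclear phosphatase of ERK, had 1.48, 1.69 and 1.6 FPKM in COLO205 and 35.9, 35.3 and 33.5 FPKM in HCT116, and HMGA2, an architectural chromatin protein, was lower, with a difference of -3.82 ± 0.053. DUSP6, the cytoplasmic ERK phosphatase often read as a measure of pathway output, averaged 82.2 ± 0.458 FPKM in COLO205 and 69.7 ± 2.96 FPKM in HCT116 and was not called. BRAF and PIK3CA were not called, with differences of -0.37 ± 0.06 for BRAF and 0.039 ± 0.067 for PIK3CA, the last with overlapping groups. Of 15 EGF receptor family and ligand genes 7 passed, 4 called higher and 0 lower, or 4 and 2 against the HCT116 libraries of 3.5 h. HBEGF, a ligand, had 44.1, 44.9 and 43.5 FPKM in COLO205 and 2.87, 2.99 and 3.19 FPKM in HCT116. AREG, amphiregulin, averaged 262 ± 0.65 FPKM in COLO205 and 76.9 ± 2.86 FPKM in HCT116, and ERBB3, a receptor, 41.4 ± 0.315 FPKM in COLO205 and 9.58 ± 0.309 FPKM in HCT116.

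In the TGF-beta and BMP pathway 27 of 38 genes passed, 9 called higher in COLO205 and 7 lower, with a median of -0.35 over the 21 in all 6 libraries. SMAD4, the shared mediator of both branches, had 0.262, 0.302 and 0.344 FPKM in COLO205 and 9.81, 8.97 and 9.31 FPKM in HCT116 (difference -2.99 ± 0.057, adjusted p = 1.76e-11). ID1, ID2 and ID3, classical BMP targets, were all lower: ID1 averaged 38.2 ± 1.79 FPKM in COLO205 and 202 ± 35.8 FPKM in HCT116, and ID3 1.38 ± 0.119 FPKM in COLO205 and 60.9 ± 4.96 FPKM in HCT116. Other targets went the other way, with SMAD6 and SMAD7, inhibitory SMADs, higher by 2.27 ± 0.067 and 1.99 ± 0.067. BAMBI, a decoy receptor, had 75.1, 86 and 86.8 FPKM in COLO205 and 2.46, 2.1 and 2.09 FPKM in HCT116. Among ligands, BMP7 and INHBB were higher by 3.55 ± 0.051 and 3.16 ± 0.058, and TGFB1 averaged 1.67 ± 0.228 FPKM in COLO205 and 24.7 ± 2.75 FPKM in HCT116.

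Interferon response genes were uneven in both directions. Of 44 listed 33 passed, 12 called higher in COLO205 and 7 lower, and over the 19 in all 6 libraries 4 were higher and 3 lower with a median of 0.51. BST2, tetherin, had 58.3, 56.7 and 67.2 FPKM in COLO205 and 1.22, 1.22 and 1.92 FPKM in HCT116, and EPSTI1 averaged 26.6 ± 0.535 FPKM in COLO205 and 0.0861 ± 0.0298 FPKM in HCT116. XAF1, a proapoptotic interferon target, averaged 17.9 ± 0.615 FPKM in COLO205 and was listed at 0 in HCT116. IFITM2 and IFITM3, near-identical membrane proteins that block virus entry, averaged 0.58 ± 0.0811 FPKM and 18.8 ± 1.53 FPKM in COLO205, against 80.7 ± 7.73 FPKM and 281 ± 25.7 FPKM in HCT116. In antigen presentation 8 of 23 genes that passed were higher and 1 lower, and 4 and 1 over the 19 in all 6 libraries, with a median of 0.36. PSMB8, a subunit of the immunoproteasome, had 41.3, 40.6 and 46.6 FPKM in COLO205 and 0.227, 0.0908 and 0.211 FPKM in HCT116, and the trimming peptidases ERAP1 and ERAP2 were higher by 3.49 ± 0.05 and 3.05 ± 0.051. TAPBP, tapasin, was lower, with a difference of -1.22 ± 0.046. NF-kB and cytokine genes gave 7 higher and 8 lower among 20 of 39 that passed, 8 of them through COLO205 alone and 3 through HCT116 alone. Over the 9 in all 6 libraries 0 were higher and 5 lower, with a median of -1.08. IL8, a neutrophil chemokine, averaged 17.3 ± 2.11 FPKM in COLO205 and 0.354 ± 0.0885 FPKM in HCT116, and NFKB2, a subunit of NF-kB, 6.29 ± 0.467 FPKM in COLO205 and 35.4 ± 2.72 FPKM in HCT116.

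Enzymes that handle foreign compounds and aldehydes were called higher more often than lower. Of 43 listed, 30 passed, 19 called higher in COLO205 and 5 lower. Through COLO205 alone 16 of the 30 passed, and over the 12 in all 6 libraries 3 were higher and 3 lower with a median of 0.15. The list summed to 2283 to 2403 FPKM in COLO205 libraries, against 749 to 826 FPKM in HCT116 libraries, 12 of its members being listed at 0 in all HCT116 libraries and none in all COLO205 libraries. ALDH3A1 had 181, 181 and 189 FPKM in COLO205 and 0.335, 0.407 and 0.524 FPKM in HCT116, while another aldehyde dehydrogenase, ALDH1A3, had 0.0179, 0.0746 and 0.0707 FPKM in COLO205 and 70.7, 71 and 70.9 FPKM in HCT116. With ALDH1A1 at 278 FPKM in COLO205 and 0.0123 FPKM in HCT116, the lines held different retinaldehyde dehydrogenases. UGT1A6, a glucuronyl transferase whose last exons are shared with the other UGT1A genes, averaged 86.6 ± 0.15 FPKM in COLO205 and was listed at 0 in HCT116. GSTT1, a glutathione transferase, averaged 32 ± 1.49 FPKM in COLO205 and was listed at 0 in HCT116. CYP24A1, which breaks down active vitamin D, averaged 2.22 ± 0.0442 FPKM in COLO205 and 81.6 ± 2.73 FPKM in HCT116, and AKR1B1, aldose reductase, 1.67 ± 0.294 FPKM in COLO205 and 31.5 ± 0.0654 FPKM in HCT116.

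Glycosyltransferases that build mucin and Lewis sugars gave 13 called higher in COLO205 and 7 lower among 34 of 40 that passed, and 7 and 2 over the 23 in all 6 libraries, with a median of 0.53. FUT3, the Lewis fucosyltransferase, averaged 34.1 ± 3.32 FPKM in COLO205 and 0.161 ± 0.0715 FPKM in HCT116. B3GALT5, which makes the type 1 chain that carries sialyl Lewis a, averaged 29.4 ± 1.61 FPKM in COLO205 and 0.215 ± 0.051 FPKM in HCT116, and GCNT3, which branches mucin sugars, 39.8 ± 1.55 FPKM in COLO205 and 0.651 ± 0.0606 FPKM in HCT116. GALNT14, an initiating transferase, was listed at 0 in COLO205 and averaged 4.35 ± 0.142 FPKM in HCT116. Serine proteases and their inhibitors gave 15 higher and 8 lower among 28 of 34, with 7 and 5 over the 17 in all 6 libraries and a median of 0.78. TMPRSS4, a membrane protease, averaged 100.3 ± 2.46 FPKM in COLO205 and 0.0409 ± 0.0142 FPKM in HCT116, and SLPI, a secreted inhibitor, 61.5 ± 4.0 FPKM in COLO205 and 0.198 ± 0.0421 FPKM in HCT116. PRSS1, a trypsinogen with near-identical copies, averaged 124 ± 0.618 FPKM in COLO205 and was listed at 0 in HCT116. SERPINE2 and PLAU, an inhibitor and the urokinase it restrains, were lower, with differences of -3.48 ± 0.089 and -2.15 ± 0.041. S100 and annexin genes gave 7 higher and 3 lower among 21 of 27, and 5 and 3 over the 19 in all 6 libraries, with a median of 0.18. S100A11 stood at 1726, 1722 and 1783 FPKM in COLO205 and 164, 185 and 172 FPKM in HCT116 and ANXA6 lower at a difference of -3.08 ± 0.048.

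Cholesterol synthesis genes were expressed throughout, 25 of 25 in all 6 libraries, with 5 called higher in COLO205 and 1 lower and a median of 0.66. Against the HCT116 libraries of 3.5 h 3 were higher. PMVK, a mevalonate pathway kinase, was higher by 1.7 ± 0.066. TM7SF2, a sterol reductase, was lower, with a difference of -1.37 ± 0.085, but its level in HCT116 depended on the culture, at 18.4 ± 2.22 FPKM after 16 h and 4.55 ± 0.0108 FPKM in the 3.5 h vehicle libraries. Hypoxia and glycolysis genes gave 5 higher and 10 lower among 33 of 33 that passed. Of these 33, 5 passed through HCT116 alone and 1 through COLO205 alone. Over the 25 in all 6 libraries 3 were higher and 5 lower, with a median of -0.27. CA9, the hypoxia-induced carbonic anhydrase 9, averaged 17.1 ± 1.26 FPKM in COLO205 and 0.0591 ± 0.0352 FPKM in HCT116, whereas BNIP3, a hypoxia-induced mitophagy receptor, averaged 0.305 ± 0.149 FPKM in COLO205 and 17.7 ± 1.16 FPKM in HCT116. ABC transporters gave 4 higher and 3 lower among 22 of 28, and 2 and 2 over the 17 in all 6 libraries, with a median of 0.11: ABCC3, an exporter of bile acid and drug conjugates, averaged 67.4 ± 2.44 FPKM in COLO205 and 9.24 ± 0.519 FPKM in HCT116. Of 32 genes for proteins secreted by the liver, 7 passed, 4 of them through COLO205 alone, with 5 higher and 0 lower (1 lower without COLO205 replicate 1 or without HCT116 replicate 2), all at low levels such as APOH at 2.14 ± 0.0773 FPKM in COLO205 and 0 in HCT116. The 15 mitochondrially encoded genes gave no call in either direction, with a median of -0.15.

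**Figure D3:**
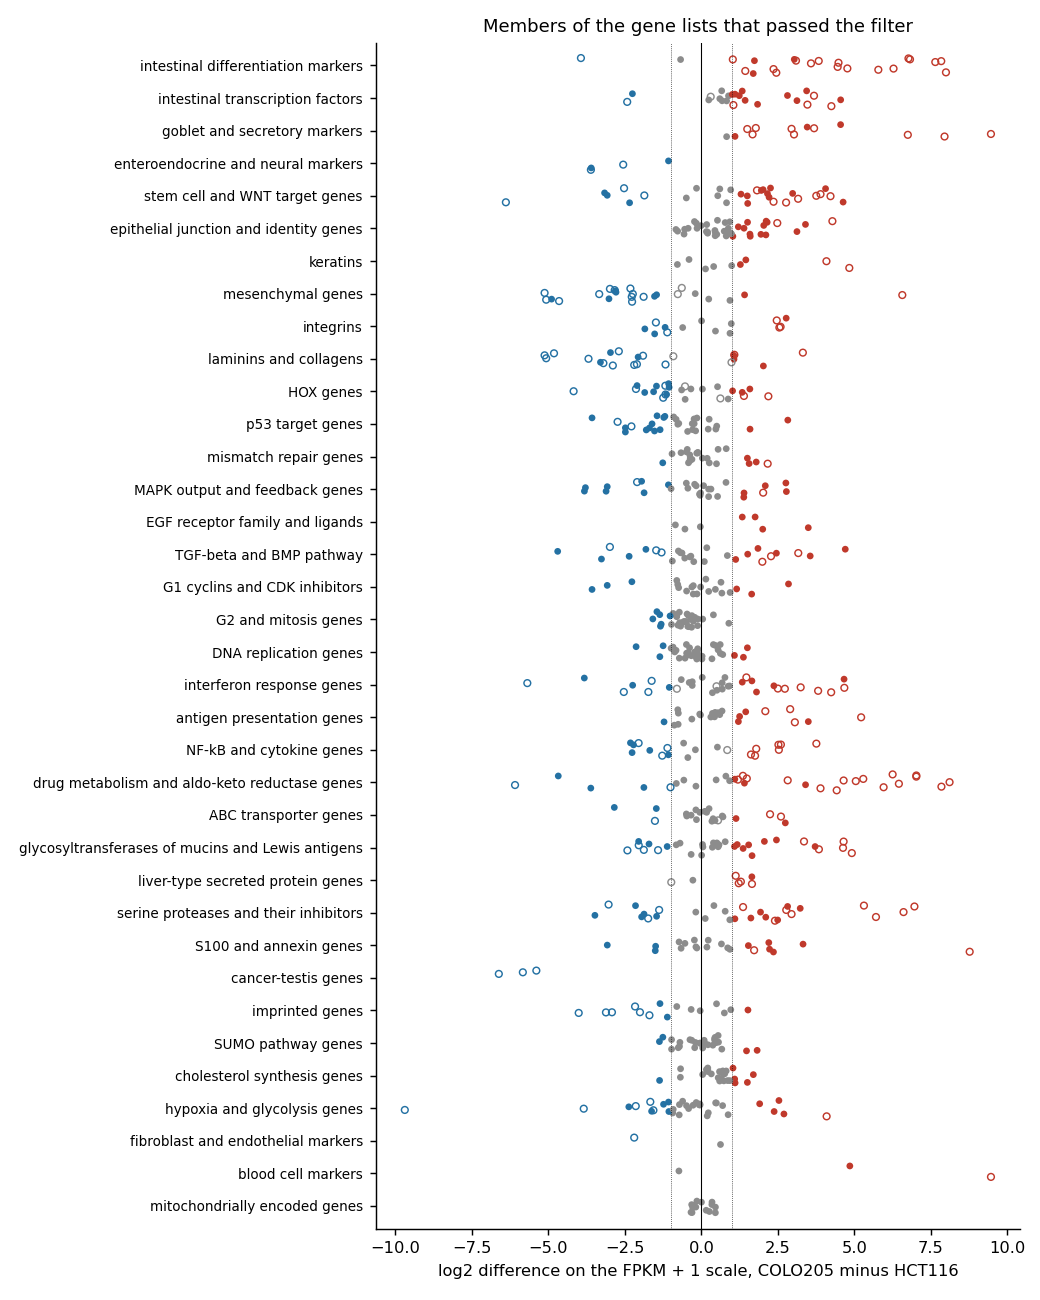
Difference between the lines, COLO205 minus HCT116 on the log2(FPKM + 1) scale, for each member of 36 gene lists that passed the filter, with red for members called higher in COLO205, blue for those called lower and grey for the rest. Open circles are members at 1 FPKM or more in a single line only, and dotted lines mark 2-fold; intestinal and secretory markers lie mainly to the right, mesenchymal, p53 target and G2 genes mainly to the left.

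Several germline and imprinted genes were on in HCT116 and at or near 0 in COLO205, though some germline genes were the reverse. Of 33 cancer-testis genes found, 3 passed and all 3 were lower in COLO205, through HCT116 alone. MAGEB2 was listed at 0 in each COLO205 library and had 95.4, 98.2 and 98.7 FPKM in HCT116, and MAGEA3, one of several near-identical MAGEA genes, was listed at 0 in COLO205 and averaged 56.1 ± 0.966 FPKM in HCT116. In COLO205 25 of the 33 were listed at 0 in all libraries, against 14 in HCT116. Outside the list, PIWIL1 and HENMT1, germline genes of the piRNA pathway, went the other way. They averaged 62.6 FPKM and 14.6 FPKM in COLO205 and were listed at 0 in each HCT116 library. Imprinted genes gave 1 higher and 8 lower among 15 of 26, or 2 and 5 against the HCT116 libraries of 3.5 h. Through HCT116 alone 6 of the 15 passed, and over the 8 in all 6 libraries 1 was higher and 2 lower, with a median of 0.23. Without COLO205 replicate 2 or HCT116 replicate 3, 2 of the list were higher. PLAGL1, a zinc finger factor, averaged 0.0921 ± 0.0385 FPKM in COLO205 and 16.6 ± 0.735 FPKM in HCT116. SGCE and PEG10, imprinted neighbours, were listed at 0 in COLO205 and averaged 7.7 ± 0.547 FPKM and 6.59 ± 0.0155 FPKM in HCT116. H19, an imprinted noncoding RNA, averaged 5.83 ± 0.319 FPKM in COLO205 and 1.38 ± 0.0404 FPKM in HCT116.

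HOX genes, which record position along the body axis, gave 5 called higher in COLO205 and 12 lower among 25 of 39 that passed. Through HCT116 alone 6 of the 25 passed, and through COLO205 alone 3. Over the 16 in all 6 libraries 3 were higher and 7 lower, with a median of -0.59. Against the HCT116 libraries of 3.5 h 4 were higher and 5 lower. HOXB8 had 0.64, 0.676 and 0.478 FPKM in COLO205 and 27.5, 28.3 and 27.8 FPKM in HCT116, and the neighbours HOXB4, HOXB5, HOXB6 and HOXB9 were also lower, with differences of -1.56 ± 0.066, -2.1 ± 0.061, -1.47 ± 0.051 and -1.85 ± 0.056. HOXB7 and HOXB13 of the same cluster were not called, with differences of -0.65 and -0.34. Within the HOXC cluster the genes parted: HOXC5 and HOXC11 were higher by 2.19 ± 0.052 and 1.39 ± 0.085, and HOXC9 was lower, with a difference of -2.14 ± 0.086.

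The SUMO pathway, the target of the study's inhibitor, was close to even between the lines by calls and median, but not by summed level. Of 28 genes 27 passed, all of them at 1 FPKM or more in all 6 libraries, with 2 called higher in COLO205, 2 lower and a median of 0.042. The list summed to 847 to 873 FPKM in COLO205 libraries and 1225 to 1275 FPKM in HCT116 libraries. Against the HCT116 libraries of 3.5 h 5 were lower. SAE1 and UBA2, the subunits of the activating enzyme, were not called: SAE1 averaged 73.2 ± 1.78 FPKM in COLO205 and 121 ± 0.692 FPKM in HCT116, and UBA2 49.3 ± 0.544 FPKM in COLO205 and 51.3 ± 1.76 FPKM in HCT116, with overlapping groups. SUMO2 had 165, 159 and 171 FPKM in COLO205 and 393, 416 and 381 FPKM in HCT116, 2.41-fold lower in COLO205. SUMO3 differed by 0.67 ± 0.048, without reaching 2-fold. USPL1, a SUMO protease, was higher by 1.47 ± 0.061, and TRIM28, a SUMO ligase and corepressor, was lower, with a difference of -1.37 ± 0.071.

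Most listed markers of other cell types did not pass the filter. Of 16 fibroblast and endothelial markers 2 passed, and COL1A2, DCN, PDGFRA and POSTN were listed at 0 in all 6 libraries. COL1A1 was called lower, at 0.519 ± 0.0219 FPKM in COLO205 and 5.97 ± 0.33 FPKM in HCT116. The list summed to 3.54 to 4.17 FPKM in COLO205 libraries and 7.28 to 8.03 FPKM in HCT116 libraries. Of 19 blood cell markers 3 passed, and PTPRC, the gene of CD45, was listed at 0 in all 6. The list summed to 918 to 982 FPKM in COLO205 libraries and 7.84 to 8.19 FPKM in HCT116 libraries, and LYZ, also a Paneth cell product, with CD68, a lysosomal protein at 158 ± 1.32 FPKM in COLO205 and 4.53 ± 0.279 FPKM in HCT116, made up nearly all of the COLO205 sum.

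Among further on and off genes, named here after their values were seen, LCK, a kinase best known from T cells, had 147, 147 and 149 FPKM in COLO205 and 0.0147, 0.0668 and 0.0466 FPKM in HCT116. CXCR3, SPN, IRF8 and CCR1, also known from blood cells, averaged 26.5, 16.5, 15.2 and 12.3 FPKM in COLO205 and under 0.1 FPKM in HCT116. CD40 and SIRPA, found on blood cells too, averaged 12.7 and 9.22 FPKM in HCT116 and were listed at 0 in COLO205. TXNIP, a thioredoxin-binding protein that responds to glucose, had 170.0, 154 and 146 FPKM in COLO205 and 0.0114, 0 and 0 FPKM in HCT116. APOBEC1, the editing enzyme of apolipoprotein B messenger RNA in the gut, averaged 18 ± 0.855 FPKM in COLO205 and was listed at 0 in HCT116. RDX, radixin, and FERMT2, kindlin-2, both linking membrane receptors to actin, were listed at 0 in COLO205 and averaged 34.8 ± 0.901 FPKM and 10.8 ± 0.625 FPKM in HCT116. Of the 194 genes on in COLO205, 73 were listed at 0 in all HCT116 libraries, 183 stayed under 0.1 FPKM in each of 3 further HCT116 vehicle libraries taken at 3.5 h, and 58 averaged 1 FPKM or more in MDAMB231. Of the 177 on in HCT116, 68 were listed at 0 in all COLO205 libraries and 107 averaged 1 FPKM or more in MDAMB231.

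Called genes also lay beside each other along the genome. Taking tested genes in RefSeq order, 20 runs of 5 or more neighbours were all called higher in COLO205 and 15 all lower. The longest held 21 genes, from FOXP4 through CCND3 to C6orf226, with differences of 1.0 to 3.57 and a median of 2.39. Of these 21 genes 19 were at 1 FPKM or more in all 6 libraries, and 3 further genes of the stretch were not tested. RPL7L1, a ribosomal protein-like gene, had 451, 469.8 and 479 FPKM in COLO205 and 69.4, 62.4 and 64.1 FPKM in HCT116, and MRPS10, a mitochondrial ribosomal protein, had 283, 262 and 269 FPKM in COLO205 and 33.6, 31.3 and 30.6 FPKM in HCT116. MED20, a Mediator subunit, differed by 2.69 ± 0.048, TFEB, the regulator of lysosome genes, by 2.58 ± 0.053, and C6orf132 by 3.57 ± 0.054. PRICKLE4 was the smallest at 1.0 ± 0.063, and its gene overlaps FRS3 on the opposite strand in the GENCODE annotation. The PRICKLE4 log2 difference was short of 2-fold without COLO205 replicate 2 (0.99) or 3 (0.96) and without HCT116 replicate 1 (0.98) or 2 (0.996), which would part the run at that gene. The USP49 log2 difference was so without HCT116 replicate 2 (0.99). The genes next to the stretch on either side, ADCY10P1 and CNPY3, differed by 0.40 and -0.79 and were not called. Over the 40 tested genes beside it, 9 were called higher and 8 lower with a median of -0.51. All 9 lay before FOXP4, most of them from BTBD9 to NFYA, such as UNC5CL and OARD1, and none after C6orf226. Within that stretch MOCS1 was lower, with a difference of -2.02. Only ADCY10P1 parted NFYA, higher by 1.66, from FOXP4. In the ML-792 libraries all 20 of the 21 genes tested there were called higher as well.

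**Figure D4:**
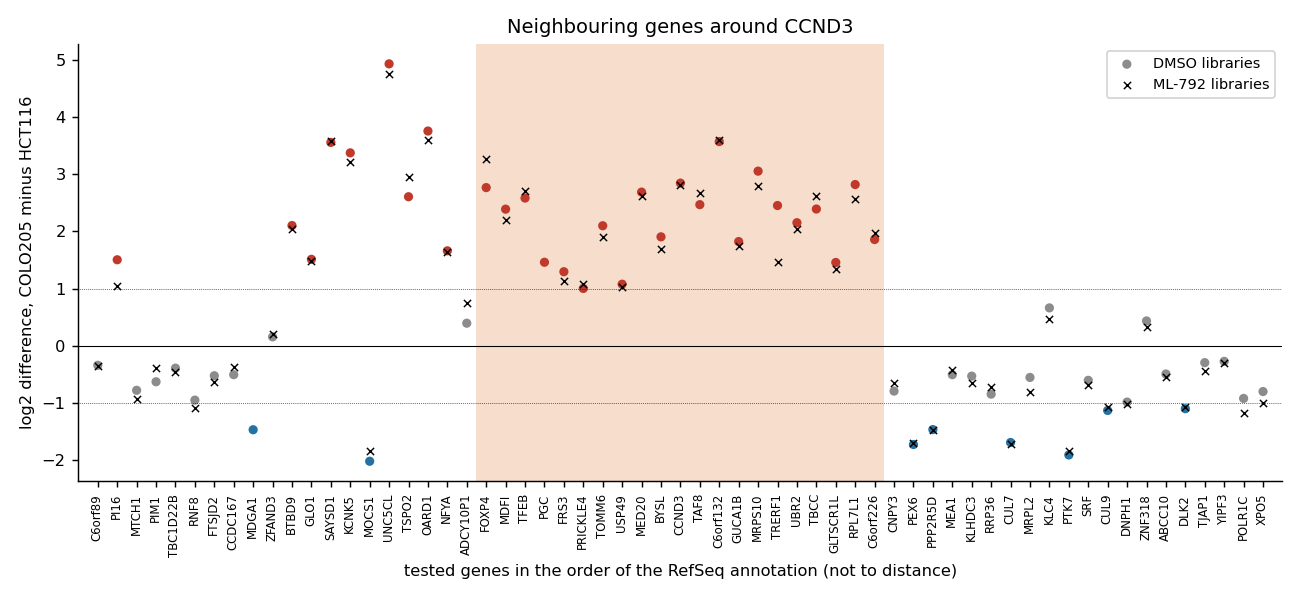
Difference between the lines, COLO205 minus HCT116 on the log2(FPKM + 1) scale, for tested genes in RefSeq order around CCND3 (not to distance), with circles for DMSO libraries (red called higher, blue lower, grey not called) and crosses for ML-792 libraries. The shaded 21 genes from FOXP4 to C6orf226 all lie at or above 2-fold, while the genes to their right lie mostly below 0.

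Shorter runs included 8 genes from MAP7 to PERP with IFNGR1, the interferon gamma receptor, higher by 2.94 ± 0.057 and IL20RA, an interleukin receptor, by 4.55 ± 0.049. A run of 8 from C21orf88 to RIPK4 held TMPRSS2, a membrane protease at 38.7 ± 0.762 FPKM in COLO205 and 0 in HCT116, and FAM3B, a secreted cytokine-like protein, higher by 5.45 ± 0.054. In a run of 8 from RFXAP to COG6, ALG5, a glucosyltransferase of N-glycan assembly, and UFM1, a ubiquitin-like modifier, were higher by 2.7 ± 0.063 and 2.2 ± 0.044. On the lower side, 8 genes ran from LOXL2 to CDCA2 and 7 from TMEM181 to SOD2, and the run that ends at SOD2 held EZR, ezrin, with 72.1, 66 and 66.4 FPKM in COLO205 and 542, 553 and 540.2 FPKM in HCT116. A run of 6 was made up of globin and olfactory receptor genes: HBE1, embryonic globin, had 0.038, 0 and 0 FPKM in COLO205 and 88, 93 and 94.7 FPKM in HCT116, OR51B5 averaged 0.0266 ± 0.0461 FPKM in COLO205 and 51.3 ± 0.716 FPKM in HCT116, and OR51B4 was listed at 0 in COLO205 and averaged 12.8 ± 0.153 FPKM in HCT116. The gene models of HBG2, HBE1 and the OR51B genes overlap on the same strand in GENCODE, so their levels cannot be told apart with certainty. Another run of 6, from IMPDH2 to KLHDC8B, held LAMB2. Genes at 1 FPKM or more in all 6 libraries numbered 5 in the run to PERP, 2 to RIPK4 and 8 to COG6. The lower runs held 5 such genes to CDCA2, 6 to SOD2, 0 among the globin and olfactory receptor genes and 5 to KLHDC8B. Untested genes made up 3 of 11, 10 of 18 and 10 of 18 genes of the higher stretches, in that order. For the lower stretches they were 7 of 15, 4 of 11, 5 of 11 and 1 of 7.

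The line difference was nearly the same in cells given ML-792, measured in separate libraries. With ML-792, 2030 of 13272 genes (15.3%) were called higher in COLO205 and 2216 (16.7%) lower. Of these, 1774 were higher with DMSO too, which is 89.0% of the DMSO calls and 87.4% of the ML-792 calls, and 1955 were lower in both, 89.4% of the DMSO calls and 88.2% of the ML-792 calls. Across 13046 genes tested in both, the differences had a Pearson correlation of 0.983, as a description over genes. Of the on and off genes, 162 of 194 and 119 of 177 met the same limits with ML-792. One gene was called in opposite directions: NSMF averaged 12.5 ± 0.311 FPKM in COLO205 and 30.4 ± 2.52 FPKM in HCT116 with DMSO, but 238 ± 3.75 FPKM in COLO205 and 30.2 ± 2.47 FPKM in HCT116 with ML-792. ADIRF kept its direction with a smaller difference, -2.54 ± 0.096 with ML-792 against -6.66 ± 0.097 with DMSO, COLO205 averaging 27.4 ± 4.22 FPKM and HCT116 162 ± 6.35 FPKM under the inhibitor.

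**Figure D5:**
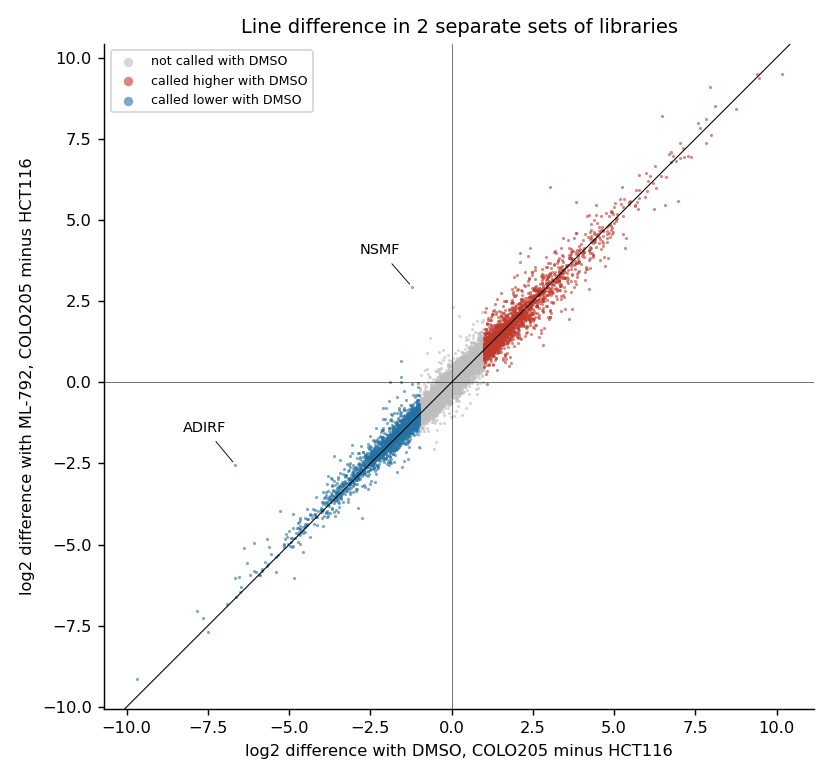
Difference between the lines, COLO205 minus HCT116 on the log2(FPKM + 1) scale, in DMSO libraries (horizontal axis) and in ML-792 libraries (vertical axis) for genes tested in both, with the diagonal drawn. Points follow the diagonal, with NSMF in the upper left and ADIRF well above the line.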

How the data were processed

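Messenger RNA was sequenced from cultured cells with stranded paired-end libraries, per the labels' protocols. The authors deposited 1 table of normalised expression values for 30373 genes in 30 libraries; its header names no unit, and the deposited values, which are not whole numbers and sum to different totals, were taken as FPKM without a statement of the authors on the unit. The sources used here name no aligner, genome build or annotation. DESeq2 1.10.1 is named in the submitters' processing notes with no role. Read counts were not used here. Relative depth was read from the most frequent ratio, gene by gene, of values under 0.3 FPKM to those of the first HCT116 library.

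From the deposited FPKM, log2(FPKM + 1) was fitted with limma 3.58.1 in R 4.3.3 (trend and robust eBayes) on the 6 vehicle libraries, keeping a gene if 3 or more of them held 1 FPKM, with Benjamini-Hochberg adjustment over 13201 genes. A call needed an adjusted p under 0.05 and at least a 2-fold difference. The ML-792 libraries were fitted in the same way. The procedure was also run on simulated data with independent noise, in which far fewer genes differed than here. That run therefore does not give the error rate in these data. Gene neighbours come from RefSeq order: 21467 of the table's genes (70.7%) matched.

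Named genes were the 12 largest calls in each direction and the 3 largest in each direction of each of 36 lists. Fixed sentinel genes and the members of the longest runs were also named. The 12 were taken among genes with no overlap between groups and a mean over the 6 libraries above the median of genes tested (9.47 FPKM). LOC, LINC, clone, antisense and pseudogene names, Y-linked genes and XIST were left out of the 12. Any other gene in the text, list members included, was chosen after its values were seen. Some genes that this rule names are not reported here. The gene lists and the comparison were chosen with earlier results of these data known. The labels do not say that the triplicates were passaged separately, so the spread may be partly technical.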

Additional observations from a re-analysis of the deposited data

Results flagged for a closer look

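NSMF, a protein of synapse to nucleus signalling in neurons, was the 1 gene called in opposite directions under the separate vehicle and inhibitor comparisons, and this is what set it apart. With DMSO it averaged 12.5 ± 0.311 FPKM in COLO205 and 30.4 ± 2.52 FPKM in HCT116, a difference of -1.22 ± 0.06. With ML-792 it averaged 238 ± 3.75 FPKM in COLO205 and 30.2 ± 2.47 FPKM in HCT116, a difference of 2.94. All 3 COLO205 libraries lay below all 3 HCT116 libraries with DMSO and above them with ML-792. The difference between the 2 comparisons was not tested.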

How the results depend on the processing

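The main counts were 1994 genes higher in COLO205 and 2188 genes lower in COLO205. With a pseudocount of 5 they were 1128 and 935, and with a filter at 5 FPKM they were 1506 and 1371; the filter tests fewer genes, and the larger pseudocount shrinks the difference of low genes by construction. Genes lower in COLO205 under ML-792 were 1417 with that filter. The counts ranged from 1983 to 2003 higher and 2173 to 2209 lower when 1 library was left out. Median-of-ratios scaling gave 2180 higher and 2004 lower, and no scaling moved the median of all genes by over 0.1. With the HCT116 vehicle libraries of 3.5 h in place of those of 16 h the counts were 2403 and 2497. By the rough estimate from low values, those libraries were also 1.51 to 2.19 times as deep as the first HCT116 library of 16 h.

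Among the 256 named genes, 4 changed sign, and the cause was not tested. The ABCA7 log2 difference was 0.32 and the TM7SF2 log2 difference 0.43 against the 3.5 h libraries. The UBA2 log2 difference was 0.034 with median-of-ratios scaling. The PIK3CA log2 difference ranged from -0.012 to 0.11 when 1 library was left out, and was lowest without HCT116 replicate 3. Of the lists not already given with the 3.5 h libraries, S100 and annexin genes then had 5 lower, antigen presentation genes 0 lower, keratins 1 lower, fibroblast and endothelial markers 1 higher and 0 lower, and mitochondrially encoded genes 2 higher and 1 lower. Of 72 counts over lists, in each direction, 20 moved by over 1.5 times with the 3.5 h libraries, 19 with a pseudocount of 5, 6 with a pseudocount of 0.1, 6 with the filter at 5 FPKM, 3 with a test against 2-fold and 1 with median-of-ratios scaling; leaving out 1 library moved at most 1. A pseudocount of 5 took 47 below the limits, and the 3.5 h libraries took 12. The genes on in COLO205 and off in HCT116, with alternatives chosen after seeing the data, numbered 193 to 202 when 1 library was left out and 229 against the 3.5 h libraries; the genes on in HCT116 and off in COLO205 numbered 179 to 187 and 151. No paired analysis was possible because replicate numbers are not in the labels. Values near 0 rest on few reads, and the depth behind them is known only in relative terms.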
